A study of Mus musculus with 24 samples.

Results

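The genes described here write, read back and remove methyl groups on cytosine: the maintenance methyltransferase Dnmt1 and its partner Uhrf1, the de novo methyltransferases Dnmt3a and Dnmt3b with their cofactor Dnmt3l, and the oxidases Tet1, Tet2 and Tet3. They were taken by name, not by a filter on their values, but with earlier results of these data known. All 8 were found among the 22889 gene entries of the deposited table. Levels were measured by SMART-seq2 RNA sequencing of poly(A) RNA in 24 samples of neurons and accompanying cells made from mouse embryonic stem cells, in 4 groups of 6. Oculomotor cultures came from the Islet1-GFP/NesEPhox2A line, in which the reporter follows Islet1 and Phox2a is overexpressed under the nestin enhancer, active in neuronal progenitors. They were patterned for 5 days as embryoid bodies with 250 nM SAG, an agonist of hedgehog signaling, and 100 ng/ml Fgf8. Spinal cultures came from the Hb9-GFP line, whose reporter follows Hb9 (Mnx1), and were patterned for 5 days with 500 nM SAG and 100 nM retinoic acid. Each culture was sorted by FACS into a GFP-positive fraction, the labelled motor neurons, and a GFP-negative fraction, the remaining cells. Line, reporter, transgene and patterning factors change together between the cultures, so that their parts cannot be told apart. Each culture type rests on 1 line, and the labels do not say that the 6 replicates were separate cultures, so that p-values measure the spread between these samples.

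Methylation of cytosine in CpG dinucleotides is copied to the new DNA strand at each replication, when Uhrf1 binds the half-methylated site and recruits Dnmt1. Dnmt3a and Dnmt3b set new methyl groups, Dnmt3l, which has no catalytic activity of its own, assists them in germ cells and embryonic stem cells, and the Tet enzymes oxidize methylcytosine as a first step of its removal. In embryonic stem cells Dnmt3b, Dnmt3l and Tet1 are known as abundant members of the family, while neurons are known for Dnmt3a and Tet3. The comparisons asked how the levels differed between the sorted neurons of the cultures and between each neuron fraction and the cells sorted away from it.

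Promoters of Dnmt3b and Dnmt3l, which differed between the oculomotor fractions, are shown beside that of Tet2, which passed no test, because CpG dinucleotides, the substrate of these enzymes, are unevenly present in them. The runs give the 250 bases before a RefSeq start on GRCm38.p6, 5′ to 3′ on the strand of the gene, with each CpG in capitals, for the start of Dnmt3b (chr2:153649199-153649448, plus strand), for 2 of the 3 starts of Dnmt3l (chr10:78049592-78049841 and chr10:78055085-78055334, plus strand) and for the start of Tet2 (chr3:133544391-133544640, minus strand).
Dnmt3b: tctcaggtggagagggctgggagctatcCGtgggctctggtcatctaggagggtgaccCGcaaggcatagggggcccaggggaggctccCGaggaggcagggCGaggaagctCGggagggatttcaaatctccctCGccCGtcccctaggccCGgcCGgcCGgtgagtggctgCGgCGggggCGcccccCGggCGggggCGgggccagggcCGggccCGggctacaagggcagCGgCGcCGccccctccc
Dnmt3l, start 2: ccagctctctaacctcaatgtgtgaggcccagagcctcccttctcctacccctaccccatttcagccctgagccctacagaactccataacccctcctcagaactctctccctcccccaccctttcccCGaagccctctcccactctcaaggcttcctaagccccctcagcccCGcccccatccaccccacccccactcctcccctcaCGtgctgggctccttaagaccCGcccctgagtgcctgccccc
Dnmt3l, start 3: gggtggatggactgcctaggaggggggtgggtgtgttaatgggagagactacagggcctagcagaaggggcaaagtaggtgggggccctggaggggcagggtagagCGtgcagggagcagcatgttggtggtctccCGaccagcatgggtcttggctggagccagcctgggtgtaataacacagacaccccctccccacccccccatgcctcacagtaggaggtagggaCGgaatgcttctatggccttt
Tet2: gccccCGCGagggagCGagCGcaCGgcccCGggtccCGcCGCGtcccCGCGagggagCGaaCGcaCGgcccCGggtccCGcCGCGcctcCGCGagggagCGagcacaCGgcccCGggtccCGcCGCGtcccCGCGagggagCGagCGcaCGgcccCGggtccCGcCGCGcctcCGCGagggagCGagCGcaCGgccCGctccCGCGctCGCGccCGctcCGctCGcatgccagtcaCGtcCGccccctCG

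These runs hold 21 CpG in Dnmt3b, 4 and 3 in the Dnmt3l starts and 51 in Tet2, against a median of 6 over all 32851 promoter entries, of which 62.2% hold fewer than 10. The remaining Dnmt3l start holds 5. Among the other genes, the count was 15 for Tet1 and 17 for Tet3, which have 1 start each, from 15 to 40 over the 3 starts of Dnmt3a, 2 to 26 over the 3 of Dnmt1, and 10 and 30 for the 2 of Uhrf1. Dnmt3l was the gene of the 8 whose starts all lay below the median of all entries. In the GENCODE M21 annotation of GRCm38 the genes span chr9:20907209-20959888 (Dnmt1, minus strand), chr17:56303321-56323486 (Uhrf1, plus), chr12:3806007-3914443 (Dnmt3a, plus), chr2:153649450-153687730 (Dnmt3b, plus), chr10:78041947-78063622 (Dnmt3l, plus), chr10:62804570-62908996 (Tet1, minus), chr3:133463679-133545139 (Tet2, minus) and chr6:83362373-83459084 (Tet3, minus). No DNA methylation was measured here.

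The value of a single read, recovered from low RPKM, put the depth at 752529 to 4642207 reads in the 16 libraries of replicates 1 to 4 and 4822576 to 7675428 in the 8 of replicates 5 and 6. Motor neuron markers followed the labels in most libraries. Isl1 lay at 141 to 369 RPKM in the oculomotor GFP-positive samples and at 0.696 to 1.87 in their negative fractions, but Isl1 and Mnx1 drive the reporters by which cells were sorted. Spinal replicate 4 stood apart in both fractions. In its GFP-positive library Isl1 was 7.63 RPKM, against 50.4 to 123 in the other 5. In its GFP-negative library Mnx1 was 69.4 RPKM, against at most 4.72 in the other 5. Mnx1, the gene of the reporter, was lower in its GFP-positive library, at 43.1 RPKM, so that this pair lacked the contrast of the sort. The mean log2(RPKM + 1) over 12 pluripotency genes was 5.95 and 6.18 in that pair, and at most 4.07 in any other spinal sample. In spinal GFP-negative replicate 2, 68.8% of the summed RPKM lay in just 3 gene models, Gm21738, Gm10801 and Gm10800, and the share was at most 17.8% in any other library. Differences of the 8 genes that rest on spinal samples are given with and without this pair, and list counts without it where they changed.

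The positive and negative fractions of the oculomotor cultures differed in 3 of the 8 genes. Dnmt3b and Dnmt3l fell and Tet3 rose from the GFP-negative to the GFP-positive fraction (limma on log2(RPKM + 1), adjusted p = 0.0118, 0.0142 and 0.0279 over 22179 genes). In this comparison 6.15% of all genes were called, 3.81% higher and 2.34% lower in the positive fraction (845 and 519 genes, or 884 and 841 after rescaling by median ratios). No member was called between the spinal fractions, between the positive fractions of the cultures, between their negative fractions, or in the difference of the fraction steps (limma, adjusted p under 0.05), where 1.23%, 0.603%, 0.96% and 0.32% of all genes were. At an unadjusted p under 0.05 the count was 1 of 8 in each of the first 3 (10.4%, 10.1% and 11.3% of all genes) and 3 of 8 in the last (7.13%). Same-numbered positive and negative samples deviated from their group means together, and with each pair as a block 6 of 8 genes were called between the oculomotor fractions, 5 lower and Tet3 higher, against 16.4% of all genes. The block also called Dnmt3l in the difference of the steps (adjusted p = 0.0145), where it called 2.04% of all genes, and no member between the spinal fractions, where it called 2.93%.

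**Figure D1:**
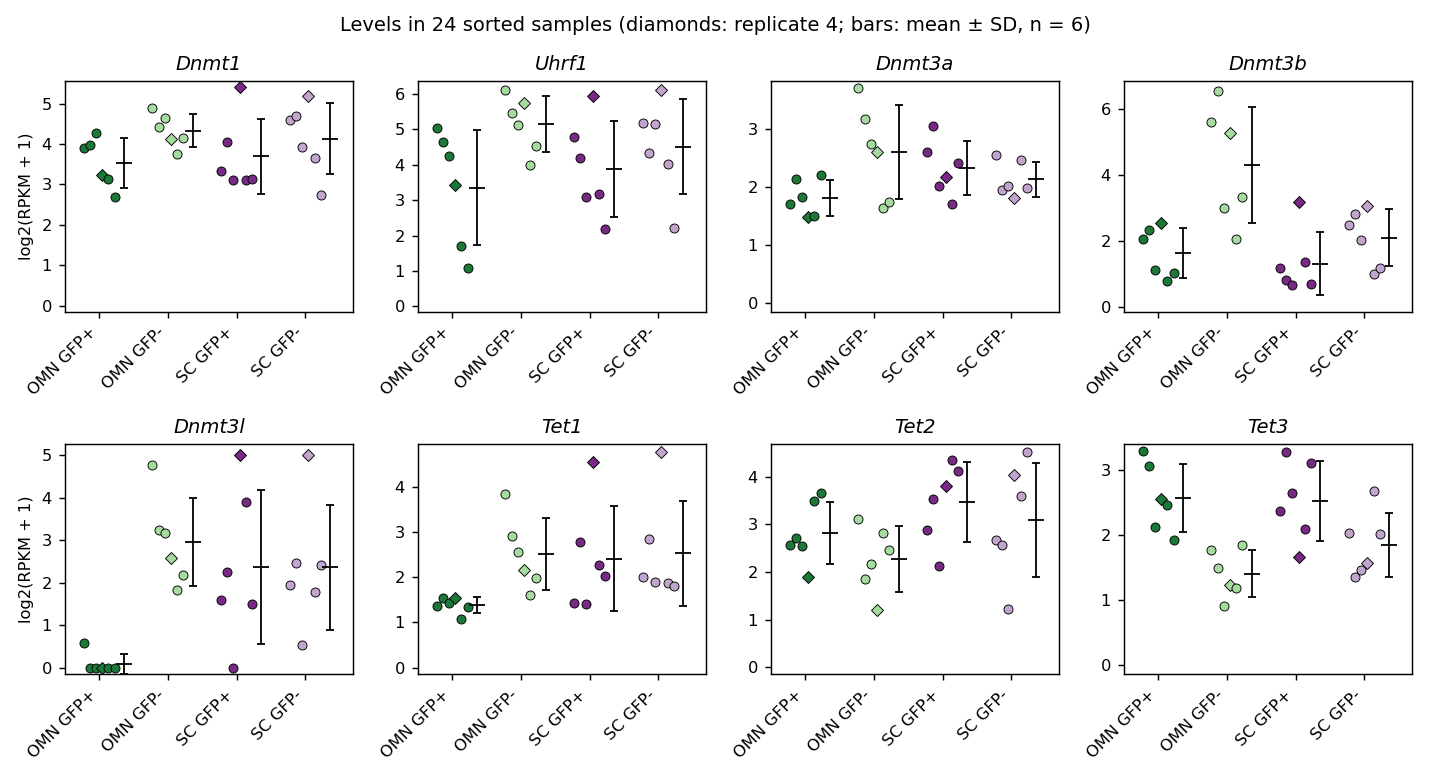
Level of each of the 8 genes as log2(RPKM + 1) in every sample, grouped by culture (OMN, oculomotor; SC, spinal) and GFP fraction; points are samples, diamonds are replicate 4, and the bar beside each group is its mean ± SD (n = 6). The oculomotor GFP-positive samples lie at or near 0 for Dnmt3l and within a narrow range for Tet1. Spinal replicate 4 is the highest sample of both spinal fractions for Dnmt1, Uhrf1, Dnmt3b, Dnmt3l and Tet1.

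Dnmt1, which copies methylation at the replication fork, and Uhrf1, which guides it there, were the most abundant members in most samples. In RPKM, Dnmt1 lay between 5.42 and 18.4 (median 11.1) in oculomotor GFP-positive samples and between 12.4 and 28.7 (median 18.65) in their negative partners. It ran from 7.60 to 41.8 (median 8.43) in spinal GFP-positive and from 5.655 to 35.3 (median 18.7) in spinal GFP-negative samples. The groups overlapped in every comparison, and the highest value of either spinal fraction was that of replicate 4. In the oculomotor cultures Dnmt1 was lower in the positive sample of 6 of 6 pairs, by 0.36 to 1.47 on the log2(RPKM + 1) scale. The mean difference was -0.80 (SE 0.41, adjusted p = 0.323), which passed the threshold with the pair as a block (adjusted p = 0.0222). In the spinal cultures it was lower in 4 of 6 pairs, with a mean difference of -0.44 (SE 0.41, adjusted p = 0.8), or -0.57 without pair 4. Between the cultures it differed by -0.16 (SE 0.43, adjusted p = 0.931) in the positive fractions, a value that turned to 0.19 without spinal replicate 4, and by 0.20 (SE 0.41, adjusted p = 0.897, or 0.41 without pair 4) in the negative fractions.

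Uhrf1 varied more among samples than Dnmt1. In oculomotor GFP-positive samples it was 31.5, 24.2, 17.9, 9.795, 2.24 and 1.12 RPKM in replicates 1 to 6, with the deeper libraries 5 and 6 lowest. The negative fractions ran from 14.95 to 67.9 RPKM (median 38.4), and 4 of their 6 values lay above every positive sample. Each pair again had the lower value in the positive fraction, by 0.81 to 3.43 on the log2 scale. The mean difference of -1.80 (SE 0.71) was not called (adjusted p = 0.155) unless pairs were blocked (adjusted p = 0.00305), and was -1.27 within replicates 1 to 4 and -2.87 within replicates 5 and 6. Replicate 4 held the highest Uhrf1 of both spinal fractions. In spinal samples Uhrf1 ran from 3.52 to 60.3 RPKM (median 12.6) in the positive and from 3.64 to 68.0 (median 26.9) in the negative fraction. It was lower in the positive sample of 6 of 6 spinal pairs too, by 0.04 to 2.07, but the mean difference of -0.62 (SE 0.71, adjusted p = 0.847, or -0.71 without pair 4) was small beside the spread and was not called with the block (adjusted p = 0.371). Of all genes, 11.2% were lower in all 6 positive samples of the oculomotor pairs and 2.6% in all 6 of the spinal pairs. Between the cultures Uhrf1 differed by -0.53 (SE 0.77, adjusted p = 0.852, or -0.12 without spinal replicate 4) in the positive and by 0.66 (SE 0.71, adjusted p = 0.762, or 0.98 without pair 4) in the negative fractions. The ratio of Uhrf1 to Dnmt1 in RPKM had a median of 1.07 in both positive fractions, 1.75 in the oculomotor negative and 1.42 in the spinal negative fraction, with overlapping ranges.

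**Figure D2:**
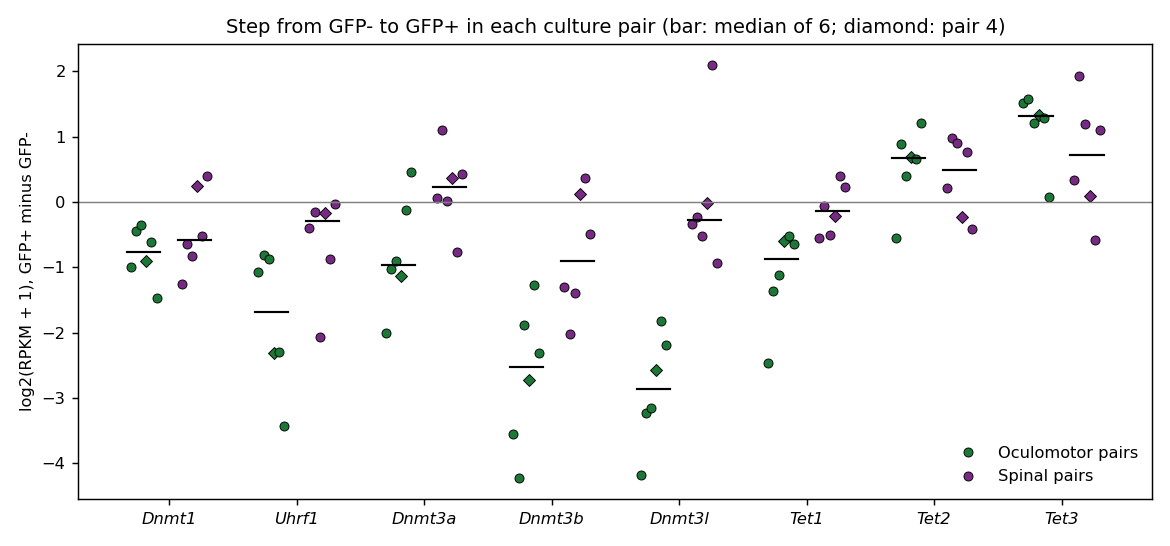
Difference between the GFP-positive and the GFP-negative sample of each pair on the log2(RPKM + 1) scale for the 8 genes; green points are the 6 oculomotor pairs, purple points the 6 spinal pairs, diamonds pair 4, and bars the median. All 6 oculomotor pairs lie below 0 for Dnmt1, Uhrf1, Dnmt3b, Dnmt3l and Tet1 and above 0 for Tet3, and the spinal pairs lie nearer to 0 for Dnmt3l, with pair 5 at 2.10.

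Dnmt3b, a de novo methyltransferase of early embryos and stem cells, showed the widest contrast in level among the catalytic members. In the oculomotor GFP-negative samples it was 48.4, 92.6, 6.97, 37.9, 3.13 and 9.025 RPKM in replicates 1 to 6. Their GFP-positive partners held 3.21, 3.99, 1.15, 4.85, 0.705 and 1.02 RPKM. Each positive sample was lower than its partner, and 5 of the 6 negative values lay above all positive ones. Dnmt3b thus fell by 2.67 on the log2(RPKM + 1) scale (SE 0.64, 95% interval -3.98 to -1.35), with a ratio of mean RPKM of 13.3. The call held in all 24 fits that left out 1 sample (adjusted p 0.0028 to 0.0368). Within replicates 1 to 4 the difference was -3.10 (adjusted p = 0.0209, where 2.27% of all genes were called) and within replicates 5 and 6, with 2 samples a group, it was -1.79 (adjusted p = 0.0963). The spinal fractions were lower and closer to each other, at 0.566 to 8.12 RPKM (median 1.01) in positive and 1.00 to 7.37 (median 3.87) in negative samples. Their difference was -0.79 (SE 0.64, adjusted p = 0.749), with a lower value in the positive sample of 4 of 6 pairs, and -0.97 without pair 4. The oculomotor and the spinal step differed by -1.88 (SE 0.90, adjusted p = 0.692, and 0.101 with the pair as a block), or by -1.69 without spinal pair 4.

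Between the negative fractions, Dnmt3b was the member with the largest difference, 2.20 higher in oculomotor than in spinal cultures (SE 0.64, 95% interval 0.89 to 3.52). It did not pass the threshold over all genes (adjusted p = 0.109). It did without spinal pair 4 (2.39, adjusted p = 0.0413, where 2.67% of all genes were called) and without oculomotor GFP-negative replicate 5, the lowest of its group (2.65, adjusted p = 0.037). The difference was 2.50 within replicates 1 to 4 and 1.59 within replicates 5 and 6. Between the positive fractions the difference was 0.33 (SE 0.50, adjusted p = 0.862), and 0.70 without spinal replicate 4. The pluripotency genes described further on moved with the difference of the negative fractions: 2 of 12, Tdgf1 and Fgf4, were called higher in the oculomotor one, and 8 of 12 without spinal pair 4. Their part in the result was not tested.

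Dnmt3a, the de novo methyltransferase retained in the nervous system, lay between 1.78 and 12.1 RPKM in all 24 samples. The order of the group medians was oculomotor GFP-negative (5.38 RPKM, range 2.11 to 12.1), spinal GFP-positive (3.91, 2.27 to 7.29), spinal GFP-negative (2.99, 2.49 to 4.84) and oculomotor GFP-positive (2.41, 1.78 to 3.59). Neighbours in this order overlapped. The oculomotor difference between fractions was -0.79 (SE 0.32, adjusted p = 0.167, and 0.0927 with the pair as a block), and it had the opposite sign in replicates 5 and 6 (0.16) from replicates 1 to 4 (-1.27). In the spinal cultures the positive sample was the higher of 5 of 6 pairs, by a mean of 0.20 (SE 0.32, adjusted p = 0.905, or 0.17 without pair 4). The steps differed by -0.99 (SE 0.45, unadjusted p = 0.0382, adjusted p = 0.65, or -0.96 without spinal pair 4), with opposite signs in replicates 1 to 4 (-1.65) and 5 and 6 (0.33). The cultures differed by -0.52 (SE 0.32, adjusted p = 0.62, or -0.55 without spinal replicate 4) in the positive and 0.47 (SE 0.32, adjusted p = 0.605, or 0.41 without it) in the negative fractions. The ratio of Dnmt3b to Dnmt3a in RPKM was above 1 in all 6 oculomotor GFP-negative samples (1.23 to 11.5), in 3 of 6 oculomotor GFP-positive samples (0.284 to 2.72), in 3 of 6 spinal GFP-negative samples (0.221 to 2.96) and, among the spinal GFP-positive samples, in replicate 4 alone (2.31, the others 0.104 to 0.692).

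Dnmt3l, the cofactor without catalytic activity, was listed at 0 in 5 of the 6 oculomotor GFP-positive samples. Replicate 1 held 0.505 RPKM, about 4.3 reads at the length of its longest transcript. A count of 0 allows up to 3 reads, or at that length 0.447, 0.645, 1.16, 0.258 and 0.238 RPKM in replicates 2 to 6, counting error only. At the same length the 0.445 RPKM of spinal GFP-negative replicate 3 would be 0.6 reads, less than 1 read. The length behind the deposited values is thus likely longer, with more reads in replicate 1 and lower limits for the zeros. Their GFP-negative partners held 26.3, 8.40, 7.945, 4.96, 2.57 and 3.56 RPKM, so that the groups did not overlap. Dnmt3l fell by 2.86 on the log2(RPKM + 1) scale (SE 0.70, 95% interval -4.32 to -1.41), a size set by the offset at this level (-5.63 with an offset of 0.1 RPKM). The call held in all 24 fits that left out 1 sample (adjusted p 0.00555 to 0.0446), and the difference was -3.29 within replicates 1 to 4 (adjusted p = 0.0879) and -2.01 within replicates 5 and 6 (adjusted p = 0.184).

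Both spinal fractions retained Dnmt3l. The GFP-positive samples held 2.03, 3.74, 0, 31.0, 13.8 and 1.83 RPKM and the GFP-negative samples 2.84, 4.55, 0.445, 31.2, 2.47 and 4.39. The value in replicate 4 was close to equal in its fractions, and pair 5 was the one in which the positive sample was higher. The spinal difference was 0.01 (SE 0.70, 95% interval -1.44 to 1.46, adjusted p = 1), and also 0.01 without pair 4. The difference between the oculomotor and the spinal step was -2.87 (SE 1.00, unadjusted p = 0.00821, adjusted p = 0.381). With the pair as a block it passed the threshold (adjusted p = 0.0145), also without spinal pair 4 (adjusted p = 0.0236, where 2.29% of all genes were called), and it was -3.01 within replicates 1 to 4 and -2.60 within replicates 5 and 6. Between the positive fractions Dnmt3l was 2.27 lower in oculomotor samples (SE 0.68, unadjusted p = 0.00496, adjusted p = 0.205), with 5 of 6 spinal values above all oculomotor ones. Without spinal replicate 4 this difference was -1.75 (adjusted p = 0.212), and it was -2.06 within replicates 1 to 4 and -2.70 within replicates 5 and 6. In the same contrast all 12 pluripotency genes lay below 0 (median -1.64) with none called. This lean was not particular to them. Below 0 also lay 2-cell-like (6 of 6, median -3.74), germ cell (10 of 10), cycling (13 of 14) and neural progenitor genes (7 of 8, median -1.79). So did the 5 endoderm genes tested. Postmitotic neuron genes leaned the other way (5 of 8 above 0), and motor neuron genes were split 5 and 5. The part of these cells was not tested. For Dnmt3l the negative fractions overlapped (0.60, SE 0.70, adjusted p = 0.785, or 1.13 without spinal pair 4).

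Tet1, a Tet enzyme abundant in embryonic stem cells, was low and even in the oculomotor GFP-positive samples, at 1.57, 1.89, 1.71, 1.92, 1.11 and 1.52 RPKM. The negative partners held 13.3, 6.47, 4.91, 3.44, 2.05 and 2.93 RPKM, so that the lowest negative value lay above the highest positive one. Of all genes, 6.52% had ranges that did not overlap in this comparison, and 3 of the 8 members did: Dnmt3l, Tet1 and Tet3. For Tet1 the difference was -1.12 (SE 0.52, adjusted p = 0.24). It was called with the pair as a block (adjusted p = 0.00823), without spinal pair 4 (SE 0.34, adjusted p = 0.0392, where 8.36% of all genes were called), and when the oculomotor groups were fitted alone (SE 0.34, adjusted p = 0.0487, where 12.6% were). Spinal samples ran from 1.65 to 22.4 RPKM (median 3.46) in the positive and from 2.47 to 26.2 (median 2.86) in the negative fraction, with replicate 4 highest in both. The spinal difference was -0.12 (SE 0.52, adjusted p = 0.977, or -0.10 without pair 4). Between the positive fractions 4 of 6 spinal values lay above all oculomotor ones, and the difference of -1.03 (SE 0.49, adjusted p = 0.506) was -0.60 when spinal replicate 4 was left out. Replicates 1 to 4 alone gave -1.07 and replicates 5 and 6 alone -0.95. The negative fractions differed by -0.02 (SE 0.52, adjusted p = 1), and by 0.43 without spinal pair 4.

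Tet3, a Tet enzyme known from oocytes and neurons, went the other way. The oculomotor GFP-positive samples held 8.76, 7.38, 3.35, 4.87, 4.50 and 2.81 RPKM and the negative partners 2.41, 1.81, 0.878, 1.33, 1.27 and 2.61. All positive values lay above all negative ones, although in pair 6 the step was 0.08 against 1.21 to 1.58 in the other 5. Of all genes, 12% were higher in all 6 positive samples of the pairs. Tet3 rose by 1.17 (SE 0.32, 95% interval 0.51 to 1.82), with a ratio of mean RPKM of 3.07. This call was the least stable of the 3 and was lost in 6 of 24 fits that left out 1 sample: oculomotor GFP-positive replicate 1 (adjusted p = 0.0684), 2 (0.0696) or 4 (0.0507), or GFP-negative replicate 3 (0.0681), 4 (0.0547) or 5 (0.0571). The difference was 1.41 within replicates 1 to 4 (adjusted p = 0.0855) and 0.68 within replicates 5 and 6 (adjusted p = 0.529). Spinal samples lay between 2.16 and 8.65 RPKM (median 4.70) in the positive and between 1.56 and 5.39 (median 2.50) in the negative fraction. The spinal difference of 0.68 (SE 0.32, 95% interval 0.02 to 1.33) had the same sign in 5 of 6 pairs and was not called (unadjusted p = 0.0446, adjusted p = 0.465), nor without pair 4 (0.79, adjusted p = 0.281). The oculomotor and spinal steps of Tet3 did not differ beyond their error (0.49, SE 0.45, 95% interval -0.44 to 1.42, or 0.37 without spinal pair 4), and the positive fractions had medians of 4.69 and 4.70 RPKM (difference 0.04, 95% interval -0.73 to 0.82, or -0.13 without spinal replicate 4). The negative fractions differed by -0.45 (SE 0.32, adjusted p = 0.628, or -0.50 without pair 4).

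Tet2, the third oxidase, passed the threshold in no comparison. It was 2.72 to 11.7 RPKM (median 5.27) in oculomotor GFP-positive and 1.32 to 7.70 (median 4.02) in oculomotor GFP-negative samples. In spinal samples it was 3.36 to 19.6 (median 11.85) in the positive and 1.34 to 22.1 (median 8.21) in the negative fraction. Replicates 5 and 6 were the 2 highest libraries of the oculomotor GFP-positive and of the spinal GFP-positive group. The positive sample was the higher in 5 of 6 oculomotor pairs (0.54, SE 0.49, adjusted p = 0.676) and in 4 of 6 spinal pairs (0.37, SE 0.49, adjusted p = 0.876, or 0.49 without pair 4). The differences between cultures were -0.65 (SE 0.42, adjusted p = 0.634, or -0.59 without spinal replicate 4) for the positive and -0.83 (SE 0.49, adjusted p = 0.542, or -0.64 without it) for the negative fractions.

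**Figure D3:**
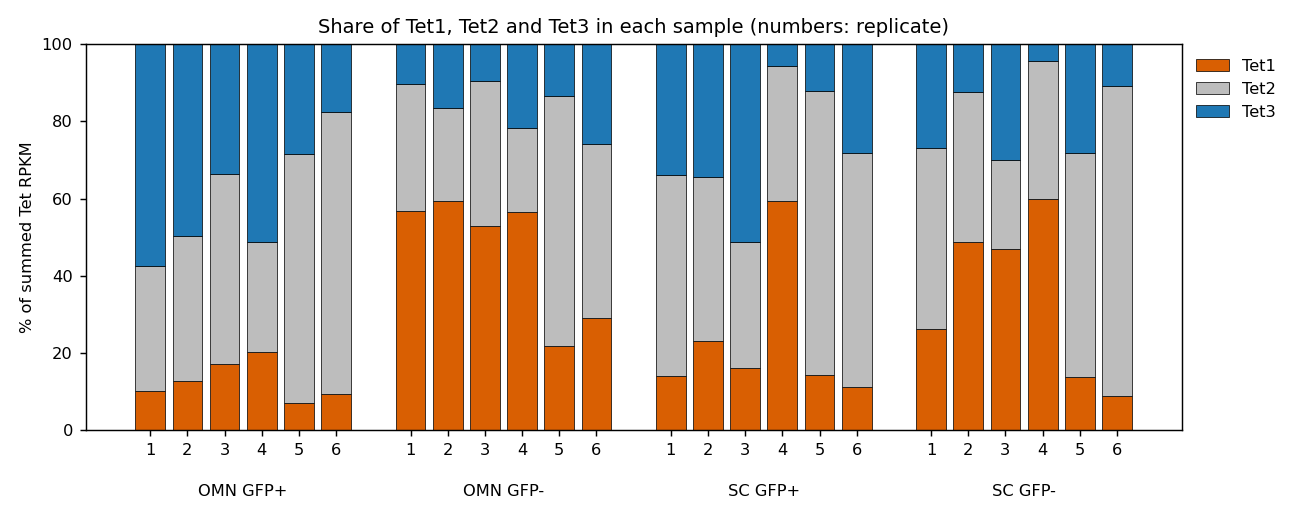
Share of Tet1, Tet2 and Tet3 in the summed RPKM of the 3 genes in each of the 24 samples, as stacked bars that add to 100%; numbers are replicates. Tet1 holds 7.01% to 20.2% in the oculomotor GFP-positive samples and 21.8% to 59.5% in the GFP-negative samples, and its largest spinal shares are those of replicate 4.

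The oculomotor fractions overlapped in the sum of the Tet family. Their ratios of Tet1 to Tet3 did not overlap, which follows from the separate ranges of Tet1 and of Tet3 given above and adds no further result. The summed RPKM of the 3 Tet genes was 9.52 to 16.0 in the positive and 6.09 to 23.4 in the negative fraction. Tet1 made up 7.01% to 20.2% of that sum (median 11.5%) in positive and 21.8% to 59.5% (median 54.7%) in negative samples. Tet3 made up 17.5% to 57.4% (median 41.6%) and 9.46% to 25.9% (median 15.0%). The ratio of Tet1 to Tet3 did not exceed 0.54 in the positive samples and was at least 1.12 in the negative ones. In spinal samples the ratio ran from 0.314 to 10.3 (median 0.542) and from 0.492 to 13.3 (median 1.27), and replicate 4 held both maxima. Of the summed RPKM of the catalytic methyltransferases, Dnmt1 held a median of 69.2% in oculomotor GFP-positive, 45.9% in oculomotor GFP-negative, 66.3% in spinal GFP-positive and 70.4% in spinal GFP-negative samples. Dnmt3b held 17.7% to 76.5% in the oculomotor GFP-negative samples and at most 32.4%, 15.2% and 18.0% in the other groups, in the same order. These ratios and shares are descriptions and were not tested.

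**Figure D4:**
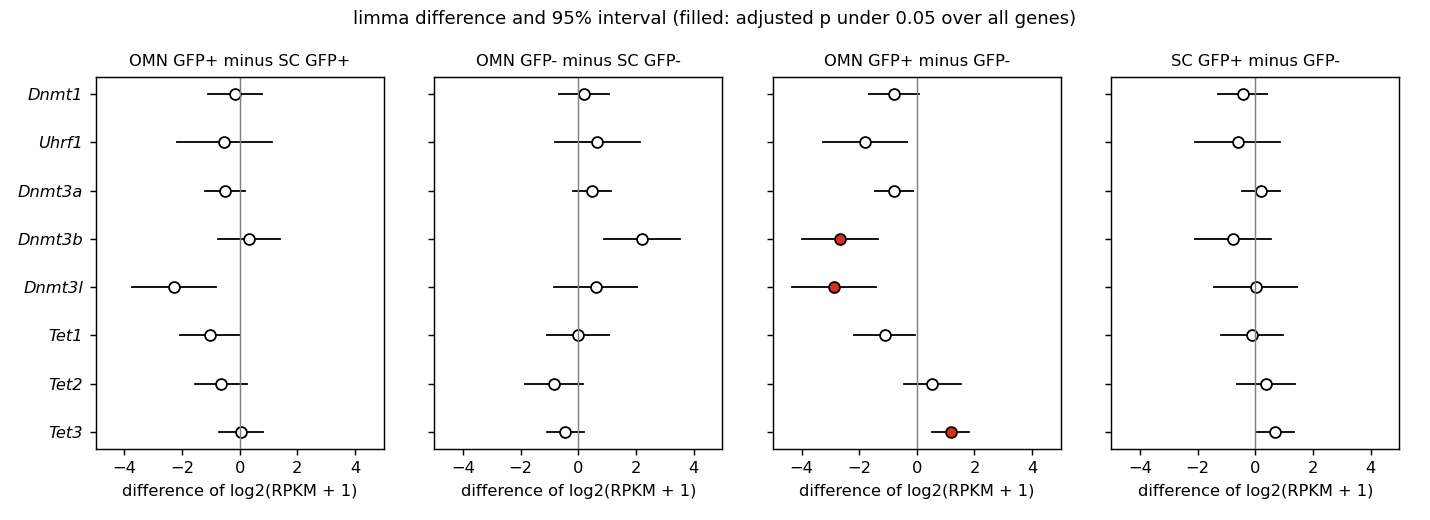
Difference in log2(RPKM + 1) with its 95% interval for the 8 genes in 4 comparisons, from limma without a block; filled points passed an adjusted p of 0.05 over all genes. Only Dnmt3b, Dnmt3l and Tet3 between the oculomotor fractions are filled, and 6 open points also have intervals off 0: Uhrf1, Dnmt3a and Tet1 between the oculomotor fractions, Tet3 between the spinal fractions, Dnmt3l between the positive and Dnmt3b between the negative fractions.

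The fractions also differed in the cells they held, as far as marker genes show it. In a bulk sample, fewer cells of a type and less RNA per cell cannot be told apart. Between the oculomotor fractions, 9 of 12 pluripotency genes were called lower in the positive fraction (Dppa5a, Zfp42 and Fgf4 with the lowest adjusted p), and 12 of 12 either with the pair as a block or without spinal pair 4. In the difference of the steps none of the 12 was called, and 9 were lower in the oculomotor step with the block and 8 without spinal pair 4. Their summed RPKM was 1.01 to 269 in oculomotor GFP-positive, 761 to 9915 in oculomotor GFP-negative, 17.8 to 12472 in spinal GFP-positive and 114 to 6216 in spinal GFP-negative samples, and none of the 12 was at 0 throughout a group. Of 14 genes of cycling cells, 6 were called lower in the oculomotor positive fraction (Mcm6, Mcm3 and Bub1 with the lowest adjusted p), 14 with the block and 9 without spinal pair 4, with summed RPKM of 73.7 to 556 in positive and 380 to 901 in negative samples. In the spinal cultures the cycling genes summed to 102 to 837 and 288 to 914 RPKM with none called. There 1 of 12 pluripotency genes, Klf4, was called lower in the positive fraction. The list leaned the other way, with 10 genes above 0 and 2 below (median 0.60, or 0.78 without pair 4). Of 8 genes of postmitotic neurons 7 were higher in the oculomotor and 4 in the spinal positive fraction, and of 10 motor neuron genes 7 and 5, among them those that drive the reporters. Without spinal pair 4 the spinal counts were 5 and 6. Of 8 neural progenitor genes 1, Sox2, was lower in the oculomotor positive fraction and none was called between the spinal ones. The part of these cells in the values of the 8 genes was not tested.

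**Figure D5:**
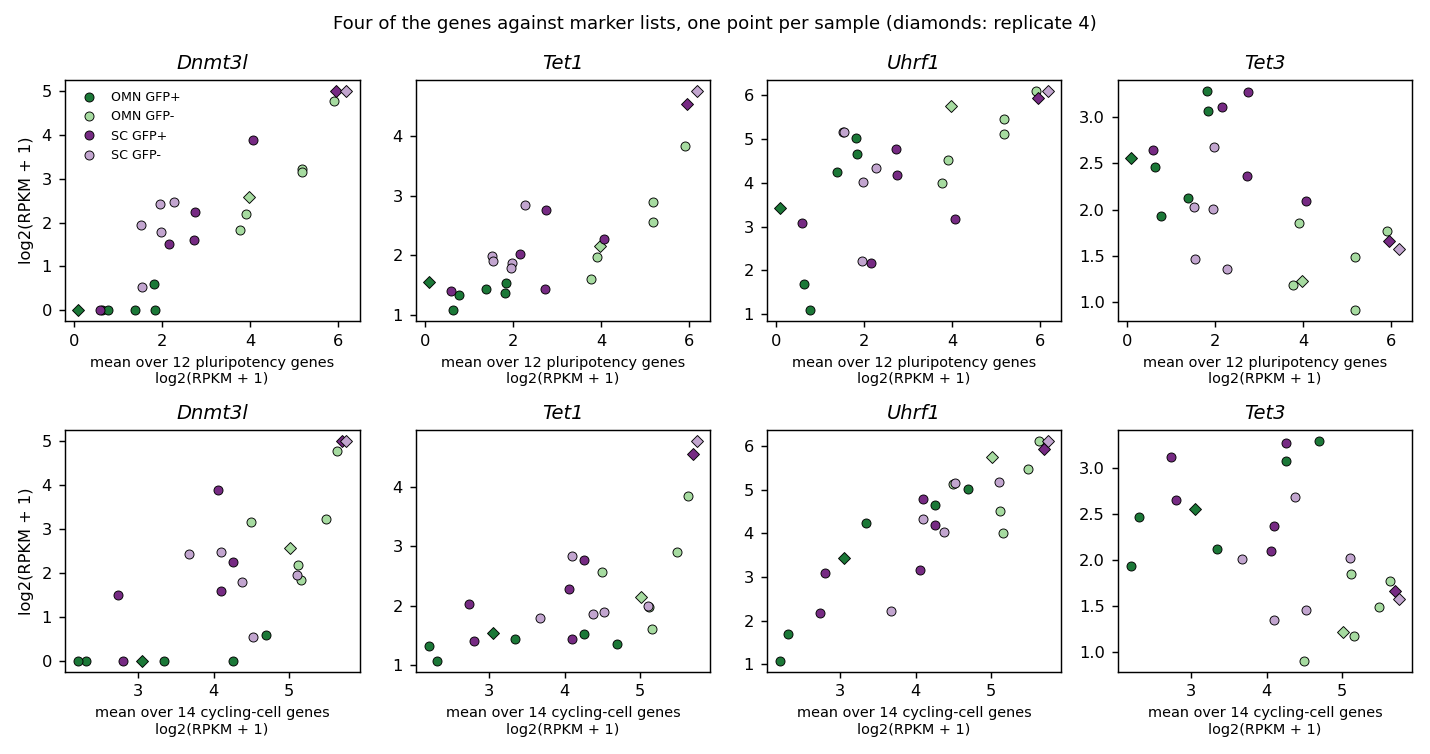
Level of Dnmt3l, Tet1, Uhrf1 and Tet3 (y axis, log2(RPKM + 1)) against the mean over 12 pluripotency genes (upper row) and over 14 genes of cycling cells (lower row) in the same sample; each point is 1 of 24 samples and diamonds are replicate 4. The samples with the highest pluripotency means, spinal pair 4 (5.95 and 6.18) and oculomotor GFP-negative replicate 1 (5.91), also hold the highest Dnmt3l and Tet1, and the oculomotor GFP-positive samples lie at the low end for both.

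Set beside the lists sample by sample, Dnmt3l and Tet1 were highest where the pluripotency genes were. The 3 samples with pluripotency means of 5.91 to 6.18 held 26.3 to 31.2 RPKM of Dnmt3l and 13.3 to 26.2 RPKM of Tet1. Among the spinal GFP-positive samples the order of Dnmt3l from high to low was that of the pluripotency mean at all 6 ranks (5.95, 4.07, 2.76, 2.74, 2.16 and 0.60 in replicates 4, 5, 2, 1, 6 and 3). Spinal pair 5, where Dnmt3l was higher in the positive sample (13.8 against 2.47 RPKM), also had the higher pluripotency mean there (4.07 against 1.99). Pairs 1, 2 and 6 did not follow this: their pluripotency means were higher in the positive sample (2.74, 2.76 and 2.16 against 1.52, 2.27 and 1.96) and their Dnmt3l was lower there. Uhrf1 in the oculomotor GFP-positive samples had the order of the cycling mean at all 6 ranks (4.69, 4.26, 3.34, 3.06, 2.31 and 2.21). These were the only 2 of 96 combinations of gene, list and group with the same order throughout, and they were picked after the values were seen. The samples share depth and library with both measures, and no test was made.

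Beyond the 8 genes, 38 genes of the pathway were followed in 5 lists. Between the oculomotor fractions 1 was called higher and 4 lower, where 3.81% and 2.34% of all genes were. Of 6 cofactors of maintenance methylation 3 were lower (list median -1.65, against 0.00 over all genes): Cdca7, which targets the remodeler Hells, at 6.41 ± 4.92 RPKM in positive and 44.1 ± 13.3 in negative samples (mean ± SD, n = 6, limma adjusted p = 0.00274), the replication clamp Pcna at 55.7 ± 35.5 and 171 ± 71.5 (adjusted p = 0.0185), and Hells itself at 4.15 ± 2.47 and 18.0 ± 5.79 (adjusted p = 0.0296). Of 7 genes that guide or guard methylated loci 1 was lower, Dppa3, which in oocytes keeps Uhrf1 away from chromatin, at 0.176 ± 0.43 and 32.7 ± 31.9 RPKM (adjusted p = 0.0187). Of 9 genes tied to the removal of oxidized or deaminated methylcytosine 1 was higher, Gadd45g, a stress and differentiation gene also linked to demethylation, at 216 ± 133 and 28.8 ± 27.4 RPKM (adjusted p = 0.03). None of 8 readers of methylated DNA (median 0.11) and none of 8 genes of the methyl donor and of Tet regulation (median 0.18, Ahcy with the lowest unadjusted p at 0.00318, adjusted p = 0.0511) was called. With the pair as a block the counts over the 38 were 4 higher and 8 lower, and without spinal pair 4 they were 1 and 6. These fits called 16.4% and 8.36% of all genes in either direction. In the other 4 comparisons limma called none of the 38, with or without spinal pair 4. At an unadjusted p under 0.05 there was 1 between the spinal fractions (10.4% of all genes) and 3 between the positive fractions (10.1%). There were 7 between the negative fractions (11.3%) and 4 in the difference of the steps (7.13%). The block called 1 between the spinal fractions (2.93% of all genes) and 3 in the difference of the steps (2.04%).

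The profiles of the members over the 24 samples were compared by the root mean square difference of standardized log2 values, in SD units. Among themselves Dnmt3l and Tet1 were closest (0.479), then Dnmt1 and Uhrf1 (0.524), and Dnmt3b and Tet3 were farthest apart (1.76), then Dnmt3l and Tet3 (1.72). Of 11028 other genes, Uhrf1 was closest to the mitotic kinase Plk1 (0.288), the DNA polymerase delta subunit Pold2 (0.329) and the single-strand DNA binding protein Rpa1 (0.339). Dnmt1 was closest to Caprin2 (0.405), Sp1 (0.41) and Cep192 (0.419). Dnmt3l was closest to the small heat shock gene Hspb1 (0.331) and the zinc finger genes Zfp988 (0.346) and Zfp534 (0.359), Tet1 to Slc25a40 (0.298), Trim6 (0.344) and B3gnt7 (0.356), and Dnmt3b to Trh (0.467), Map7d3 (0.513) and Zic5 (0.525). Tet3 was closest to Cpeb2 (0.49), Hacd3 (0.518) and Cep170 (0.53), and Tet2 to Mreg (0.488), Sik1 (0.505) and Pan3 (0.51). Dnmt3a had no close neighbour, with Dmtn (0.785), Ing3 (0.811) and Prps2 (0.826) first. The samples share their libraries, groups and depth in these measures. Spinal pair 4, which held the highest spinal values of Dnmt1, Uhrf1, Dnmt3b, Dnmt3l and Tet1, is among them. Distances without that pair were not computed.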

How the data were processed

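The deposited table gives RPKM (reads mapped to a gene, divided by its length and by the library's mapped reads) per gene and sample. The authors aligned with HISAT2 (2.0.3 per the labels) to mouse mm10, computed RPKM with rpkmforgenes and used DESeq2 (1.12.4 per the labels) for their own comparisons. Reads of 2 lengths from 2 sequencers were used, libraries were made from lysate without molecular identifiers, and the gene annotation is not given in the sources used here. The table holds no counts, so count tests were not run. Depth was estimated from RPKM steps in 5911 genes with a single transcript, of whose low values 95.9% to 97.8% per sample lay within 2% of whole reads.

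Differences were fitted on log2(RPKM + 1), which understates changes of low genes, with limma 3.58.1 (R 4.3.3, trended moderated variances, two-sided, Benjamini-Hochberg adjustment over all genes, threshold 0.05), on genes above 0 RPKM in at least 2 samples fitted. For the positive fractions the fit held their 12 samples, and for all other comparisons 24. The fits were tested on simulated data. The main fits held the group alone, without a block. For the block and the pair counts, same-numbered fractions of a culture were taken as pairs, since their deviations from the group means correlated in every pair (0.39 to 0.75 in oculomotor, 0.44 to 0.67 in spinal cultures, over 11055 genes). The correlation was highest with the same number in 6 of 6 oculomotor and 5 of 6 spinal pairs. No 2 libraries were identical.

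The 8 genes were always named. Of each list, at most 3 genes were named per comparison, by lowest adjusted p, or unadjusted p where none was called, and for each member the 3 genes of most similar profile with a mean log2 of at least 1. The members and lists were chosen with earlier results of these data known. Lists come from general knowledge: 5 of the pathway and 8 of cell types (pluripotent, cycling, neural progenitor, postmitotic neuron, motor neuron, endoderm, germ cell, 2-cell-like). All 8 members matched promoter entries of RefSeq (15 starts). Alternatives were another offset, other filters, rescaling, blocks, sample weights, subsets of replicates and leaving out samples. Figures were drawn with matplotlib 3.10.9.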

Additional observations from a re-analysis of the deposited data

Results flagged for a closer look

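In 3 of the 32 sets of 6 values on the log2(RPKM + 1) scale, 1 for each gene and group, the highest sample lay apart from the others by more than Dixon's critical value for the gap over the range. Chance flags about 1 in 20 such sets. Dnmt3b in the spinal GFP-positive samples was 8.12 RPKM in replicate 4, against at most 1.57 in the other 5. Tet1 in the spinal GFP-negative samples was 26.2 RPKM in replicate 4, against at most 6.15 in the other 5. Both libraries belong to the pair with the highest pluripotency means, 5.95 and 6.18. Dnmt3l in the oculomotor GFP-positive samples was 0.505 RPKM in replicate 1 and listed at 0 in the other 5. With those 5 tied, any value above 0 would be flagged, so that this flag was certain and the rate of 1 in 20 does not apply to it.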

How the results depend on the processing

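Over 40 differences (8 genes in 5 comparisons), no called value changed sign under any setting, and 43 of 1295 alternative values had the other sign without being called. No call on the 8 genes was gained or lost with another filter, offset or scaling. The replicates 5 and 6 subset and the fit that leaves out spinal pair 4 under a block were chosen after seeing the data. The cause of the changes below was not tested.

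Of the 8 genes, between the oculomotor fractions 6 were called with the replicate block within culture (pairs), also without spinal pair 4, and with sample weights, 1 in replicates 1 to 4 and 0 in replicates 5 and 6. Between the negative fractions 1 was called with the replicate number as a block and 1 without spinal pair 4. In the difference of the steps 1 was called with the pair block, with or without spinal pair 4. Leaving out 1 sample gave 0 to 0, 0 to 1, 2 to 3, 0 to 0 and 0 to 0 calls between positive fractions, negative fractions, oculomotor fractions, spinal fractions and in the difference of the steps. Dnmt3l could not be tested between the positive fractions among genes at 1 RPKM or more in 6 samples, a filter it did not pass.

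Over all genes, 116 were called between the positive fractions, 229 with an offset of 0.1 RPKM, 73 with the number as a block, 260 with weights, 30 in replicates 1 to 4, 13 in replicates 5 and 6, 342 in the fit of 24 samples, and 67 to 181 leaving out 1 sample. Between the negative fractions the count of 213 became 563 with the number as a block, 650 with weights, 39 in replicates 1 to 4, 76 in the fit of 2 groups, 584 without spinal pair 4, and 115 to 444 leaving out 1 sample. Rescaling by median ratios changed its split from 91 higher and 122 lower to 151 and 133. Between the oculomotor fractions 1364 became 2361 with the number and 3644 with the pair as a block, 3666 with the pair block without spinal pair 4, 3795 with weights, 476 in replicates 1 to 4, 884 in replicates 5 and 6, 2388 in the fit of 2 groups, and 1017 to 1558 leaving out 1 sample. Between the spinal fractions 272 became 416 with the number and 649 with the pair as a block, 484 with weights, 1 in replicates 1 to 4, 4 in the fit of 2 groups, 633 without pair 4, 1238 without it under the pair block, and 186 to 634 leaving out 1 sample. In the difference of the steps 71 became 108 after rescaling, 133 with the number and 453 with the pair as a block, 240 with weights, 10 in replicates 1 to 4, 228 without spinal pair 4, 499 without it under the pair block, and 41 to 234 leaving out 1 sample. Between cultures the numbers did not pair the samples: correlations ran from -0.18 to 0.72 with 1 of 6 samples best matched to its own number in the positive and from -0.04 to 0.63 with 2 of 6 in the negative fractions.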

Other observations

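The germ cell list held 10 genes known to be kept silent by promoter methylation, of which Rhox5 is not particular to germ cells. The summed RPKM of the list was 0.412 to 2.81 in oculomotor GFP-positive, 11.7 to 138 in oculomotor GFP-negative, 9.55 to 567 in spinal GFP-positive and 73.5 to 369 in spinal GFP-negative samples. Rhox5 held most of it in the negative fractions, with means of 42.8 RPKM in the oculomotor and 205 in the spinal one. In the oculomotor positive fraction 4 of the 10 were at 0 in all samples (Mael, Sycp1, Asz1 and Tex101). Between the oculomotor fractions 2 of 10 fell, the homeobox gene Rhox5 by 4.41 (SE 0.70, limma adjusted p = 0.000264) and the synaptonemal complex gene Sycp3 by 1.99 (SE 0.47, adjusted p = 0.0114). Between the positive fractions Rhox5 was lower in oculomotor samples, at 0.58 ± 0.643 against 153 ± 193 RPKM (mean ± SD, n = 6, adjusted p = 0.0028). None of the 10 was called between the spinal fractions or between the negative ones, although 1, Sycp3, was higher in the oculomotor negative fraction without spinal pair 4. The spinal positive samples with the highest means over the list, replicates 4 (2.90) and 5 (2.42), were also those with the most Dnmt3l. They had the highest pluripotency means as well (5.95 and 4.07). The next ranks differed: replicates 1 and 2 had list means of 1.91 and 1.70 and held 2.03 and 3.74 RPKM of Dnmt3l. This match was picked after the values were seen, and no test was made.

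Genes of the 2-cell-like state of embryonic stem cells were absent or nearly so from the oculomotor samples, with a summed RPKM of at most 0.835 in the positive and 1.11 in the negative fraction. The spinal GFP-positive samples held 30.7 to 564 RPKM and the spinal GFP-negative samples 0 to 65.5. Of the 6 genes 3 rose in the spinal positive fraction, Zscan4f, Zscan4c and Zscan4d (adjusted p = 8.08e-05, 0.00192 and 0.00286), and the same 3 were higher in spinal than in oculomotor positive samples. Of 6 endoderm genes 4 were lower in the spinal positive than the spinal negative fraction (Gata6, Gata4 and Sox17 with the lowest adjusted p), 3 were lower in oculomotor than in spinal negative samples, and none was called between the oculomotor fractions. Without spinal pair 4 the last 2 counts were 4 and 3, and with the pair as a block 1 was lower between the oculomotor fractions (Ttr).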
